A study of Homo sapiens with 6 samples.

Results

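The genes described here are 35 members of the Hippo pathway and of the set of genes that its effectors YAP and TAZ switch on together with TEAD transcription factors. They were chosen by symbol from a list of kinases, regulators, effectors and targets, and all 35 were found among the 60609 gene identifiers of each library. The samples are 6 RNA libraries of HEK293, an established line of adenovirus-transformed human embryonic kidney cells, of which 3 are labelled wild type and 3 STAT5B knockout. The knockout was made with CRISPR/Cas9, per the labels as clones with both alleles mutated, and control and knockout cells were grown in the same serum-containing medium with no further treatment named. That medium was DMEM with fetal bovine serum. The titles of all 6 samples carry the word Sham, and the growth protocol names GS knockout clones, and neither term is explained there. How many clones the 3 knockout libraries represent, and whether replicates were separate cultures, is not stated in the labels. P-values therefore set a group difference only against the spread within the groups of these samples, which may be technical. What sets a clone apart from the parental line cannot be separated here from what losing STAT5B does. In bulk RNA, fewer cells expressing a gene and less RNA per cell cannot be told apart. Cell density at harvest, to which Hippo signalling is known to respond, is not stated there either.

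In the Hippo pathway the kinases MST1 and MST2 (genes STK4 and STK3), helped by the scaffold SAV1, activate the kinases LATS1 and LATS2, which work with the MOB1 proteins. LATS kinases phosphorylate YAP (YAP1) and TAZ (WWTR1), which are then held in the cytoplasm or degraded. When the kinases are off, as in sparse or mechanically stretched cells, YAP and TAZ enter the nucleus and bind TEAD1 to TEAD4 at genes for growth, adhesion and cytoskeleton. Some genes whose products restrain YAP, such as AMOTL2, LATS2 and PTPN14, are also known as YAP targets. They are counted here by their role in the pathway and not among the targets. The step is controlled by phosphorylation and location, which mRNA levels do not measure.

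TEAD proteins bind a short sequence, GGAATG or CATTCC on the other strand, and the following stretches show where these letters lie before the RefSeq start of members whose levels are described below. The windows searched run from 250 bases before to 50 bases after a gene's start, from RefSeq on GRCh38.p14, and 27 of the 35 members had at least 1 window. The 120 bases upstream of CCN2, a textbook YAP-TEAD target, held 3 matches, 169, 104 and 95 bases before the start (chr6:131951442-131951561, minus strand). The stretch upstream of YAP1 itself held 1 match, 162 bases before the start (chr11:102110265-102110310, plus strand). Matches of NUAK2, AMOTL2, AJUBA, WTIP, AXL and LATS2 are not printed. The other sites shown are given as 30 bases each. They come from ANKRD1 (chr10:90921290-90921319 and chr10:90921198-90921227, minus strand), from PTPN14, the called member with a match (chr1:214551785-214551814, minus strand), and from TGFB2 (chr1:218345139-218345168, plus strand). The PTPN14 site and the second ANKRD1 site lie inside the gene as GENCODE 29 draws it, whose start is further upstream than the RefSeq start used here. Capitals mark the matches, and each sequence reads 5′ to 3′ along the gene's strand.
CCN2: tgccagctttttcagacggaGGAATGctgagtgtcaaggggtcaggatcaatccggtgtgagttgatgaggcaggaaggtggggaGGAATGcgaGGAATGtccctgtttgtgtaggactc
YAP1: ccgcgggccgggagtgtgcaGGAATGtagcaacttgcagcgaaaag
ANKRD1, 220 bases before the start: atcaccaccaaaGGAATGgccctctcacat
ANKRD1, 128 bases before the start: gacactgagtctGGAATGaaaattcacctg
PTPN14: cctcccgggccgCATTCCtccccgcccccg
TGFB2: tgtcagggcgcaCATTCCacctccttcctc

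The 6 letters were found for 11 of the 27 members (40.7%), against 16.7% of 27305 genes with a window. A gene can have several windows, and by window the shares were 28.2% of 39 and 14% of 35116. The members include genes that were listed as YAP-TEAD targets. The motif is 6 letters long and a match is a description of the window, not a bound site. Among the 8 members with a window whose level changed in the knockout, 1 held a match (PTPN14). Among the 17 that were tested and did not pass, 8 did, and both members under the tested level (ANKRD1 and AXL) did. The letters of a STAT site, TTCNNNGAA, which read the same on both strands, were found for 1 member (SAV1), 3.7% of 27, against 9.38% of all genes.

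The libraries held 17494927 to 21099791 estimated counts. In a check of identity, 7 of 10 kidney and nephron markers were at 1 TPM or more in every library (TPM is transcripts per 1000000, a level corrected for gene length), with SIX2 at 50.9 and 46.2 TPM in wild type and knockout, while PAX8 was near 0 and CDH16 had 0 counts. Of 10 fibroblast markers 1 reached 1 TPM in every library (COL1A1), with a summed level of 6.02 to 7.08 TPM in the wild type and 5.42 to 7.54 TPM in the knockout. Of 8 haematopoietic markers PTPRC, CD3E and HBB had 0 counts in all libraries, and of 8 endothelial markers 0 reached 1 TPM. The targeted gene STAT5B had 70.1, 64.6 and 69.4 CPM (counts per 1000000) in the wild-type libraries, against 63.1, 61.8 and 60.5 CPM in the knockout, a difference of −0.14 in log2 units (edgeR adjusted p = 0.0468) whose call ended in 11 of 15 alternative settings. A count over the whole gene does not show a small mutation, so it does not check the genotype.

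The pathway's own components were mostly expressed at moderate RNA levels in these cells. The listed targets ranged from under 1 TPM to the class of 10 to 50 TPM, which held 4 of them, CCN1 included. By TPM averaged over the 6 libraries, 2 members were at 50 or more (MOB1A and AMOT), 19 lay from 10 to 50, 9 from 1 to 10 and 5 under 1. All 5 of the lowest, NUAK2, NT5E, ANKRD1, MYOF and AXL, are among the 13 targets. The median of the wild-type means was 32.1 TPM for the 7 genes of the kinase cascade, 19.2 for the 8 upstream regulators, 19.0 for the 7 effectors and TEAD partners and 1.70 for the targets. These classes are read from levels within the same libraries and carry no test.

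**Figure D1:**
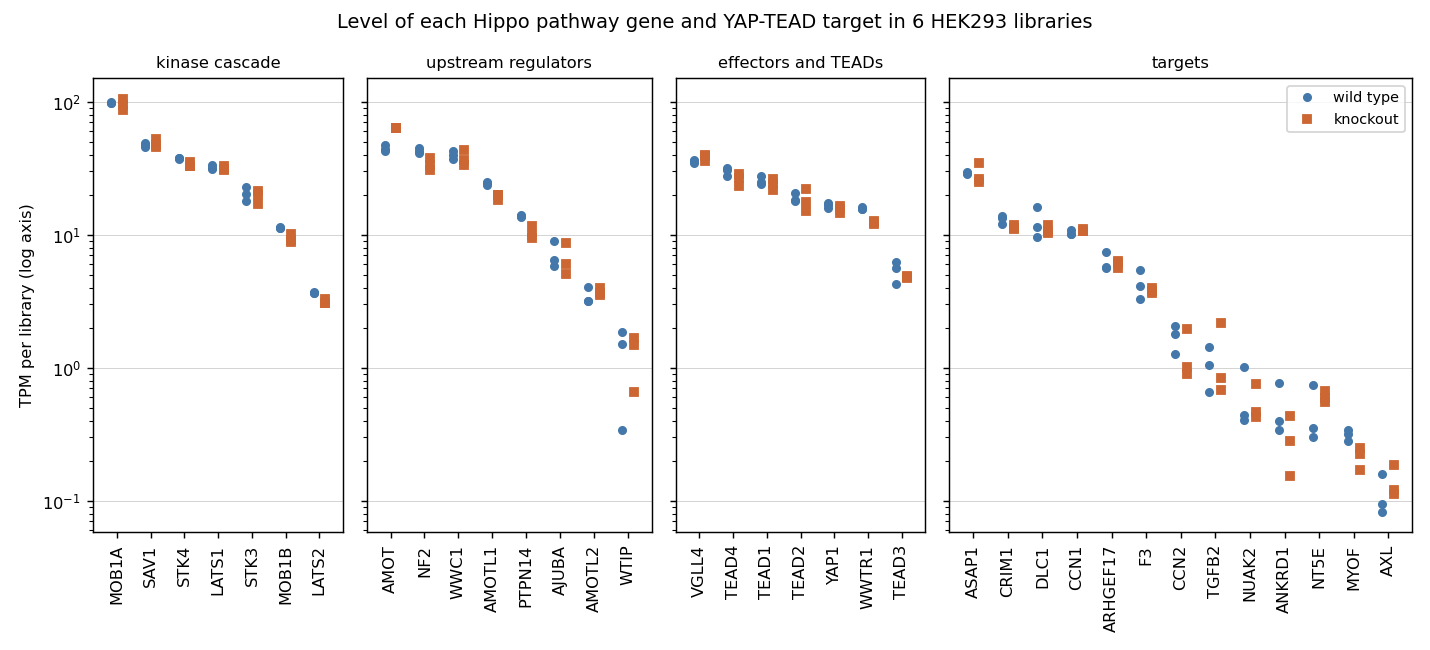
TPM of each member (log axis) in 3 wild-type libraries (circles) and 3 knockout libraries (squares), grouped by role and ordered by the wild-type mean. The kinase cascade runs from MOB1A near 100 TPM to LATS2 near 3.7, whereas 5 of the 13 targets lie under 1 TPM on average.

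In the knockout, 3 members rose (AMOT, DLC1 and VGLL4) and 7 fell (PTPN14, NF2, AMOTL1, WWTR1, MOB1B, TEAD1 and STK4), at an adjusted p under 0.05 in edgeR's quasi-likelihood test over 15958 genes. Another 23 did not pass, and ANKRD1 and AXL were under the tested level. The 10 called members are 30.3% of the 33 tested, and the share over all tested genes was 23.4% (12.1% higher and 11.4% lower), so the count over the members is near the background. The median log2 fold change (knockout over wild type) was −0.04 over the 33 members and 0.006 over all tested genes. By role, 2 of 7 genes of the kinase cascade, 4 of 8 upstream regulators, 3 of 7 effectors and partners and 1 of 11 tested targets were called. The 3 knockout values lay outside the wild-type range for 15 of 33 members, 5 above and 10 below, where the share over all tested genes was 38.6%.

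**Figure D2:**
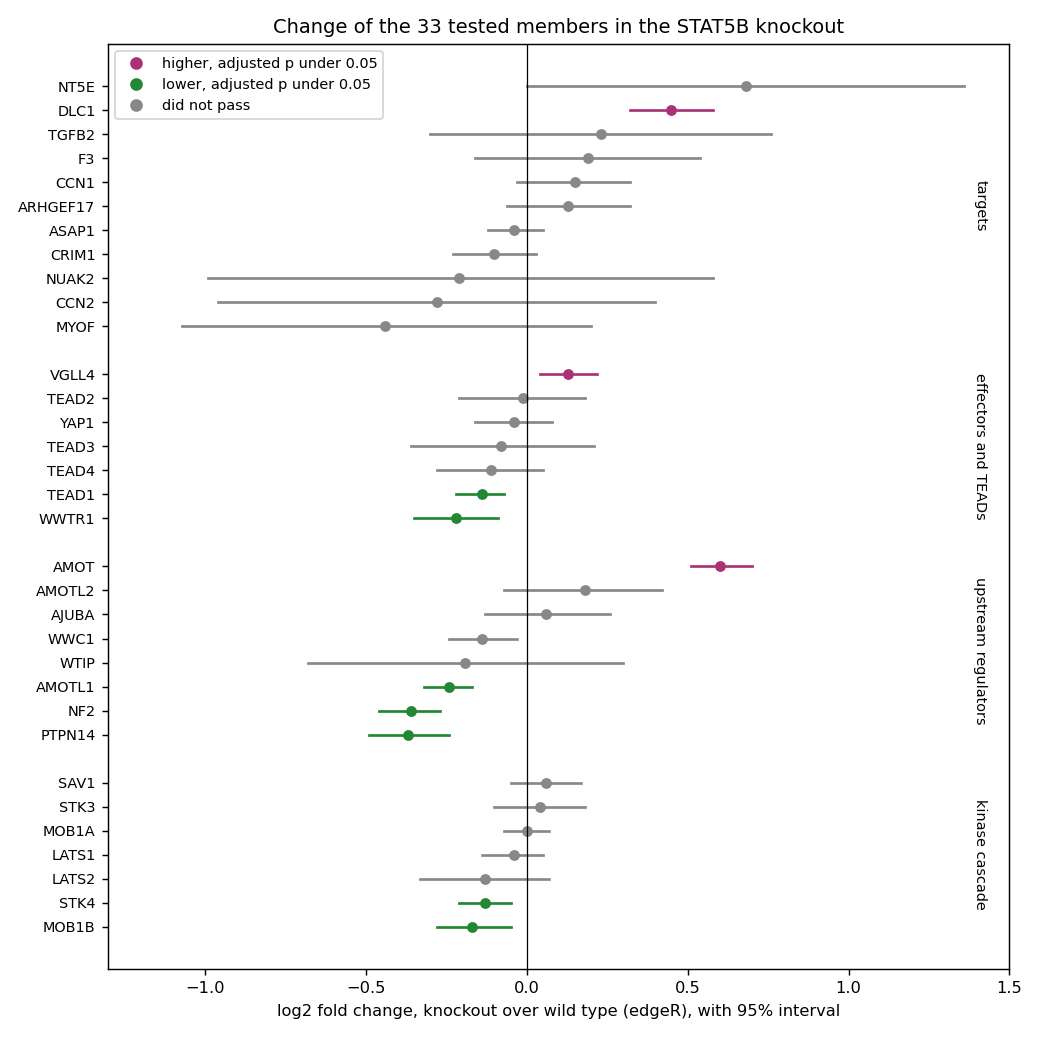
Log2 fold change of each tested member (point) with its 95% interval (line) from edgeR, grouped by role. AMOT lies furthest to the right among the called members (0.60) and PTPN14 furthest to the left (−0.37), and the widest intervals belong to targets with few counts, such as NUAK2 (−0.99 to 0.58).

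The kinase cascade changed little. STK4, the MST1 kinase, had 140, 137 and 139 CPM in the wild-type libraries, against 130, 129 and 122 CPM in the knockout. All knockout values lay below all wild-type values, a fall of 0.13 in log2 units (SE 0.036, edgeR adjusted p = 0.0186). The 50 nearest tested genes on chromosome 20 had a median of −0.079, and with an offset for such neighbours the STK4 call ended (log2 fold change −0.05, adjusted p = 0.375), as it did without wild-type replicate 1 (adjusted p = 0.0621) and with offsets for effective length (0.244). Its paralogue STK3, the MST2 kinase, had 25.7 ± 1.44 and 26.4 ± 0.942 CPM (SD, n = 3), with groups that overlapped.

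MOB1B, an activator of LATS, had 36.3, 37.5 and 36.3 CPM in the wild-type libraries, against 34.0, 31.8 and 32.3 CPM in the knockout. The groups did not overlap, and it fell by 0.17 in log2 units (SE 0.055, edgeR adjusted p = 0.0416). That call is fragile, since it ended in DESeq2 (adjusted p = 0.119) and, with edgeR, when leaving out wild-type replicate 1, 2 or 3 (0.0749, 0.126 and 0.0688) and, in turn, when knockout replicate 2 or 3 was left out (0.135 and 0.0758). MOB1A, which encodes a near-identical protein, had 212 CPM in both groups, with SDs of 3.99 and 5.87. MOB1A was the larger source of MOB1 mRNA, with 89.7% of the summed MOB1 TPM in the wild-type libraries, against 91.0% in the knockout.

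The LATS kinases and SAV1 did not pass. LATS1 had 129, 120 and 119 CPM in the wild-type libraries, against 125, 114 and 119 CPM in the knockout, with overlapping groups and a 95% interval of −0.14 to 0.05 for the log2 fold change. LATS2 had 10.4, 10.5 and 10.4 CPM in the wild-type libraries, against 9.94, 9.41 and 9.26 CPM in the knockout. All 3 knockout values of LATS2 lay lower, but the difference of −0.13 (log2, SE 0.093) did not pass (edgeR adjusted p = 0.336). Per length, LATS1 made up 89.7% ± 0.334 of the summed LATS TPM in the wild type and 90.9% ± 0.126 in the knockout (SD, n = 3). SAV1 had a log2 fold change of 0.06 (95% interval −0.05 to 0.17).

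Of the 8 upstream regulators 1 rose (AMOT), 3 fell (NF2, PTPN14 and AMOTL1) and 4 did not pass. Over all tested genes 23.4% were called, and in a list of 8 nothing is read from the count. AMOT, an angiomotin that binds YAP and tight junction proteins, had 135, 148 and 132 CPM in the wild-type libraries, against 203, 217 and 210 CPM in the knockout. The gene lies at chrX:112774503-112840815 on the minus strand (hg38, GENCODE 29). The groups were far apart, and AMOT rose 1.52-fold (log2 fold change 0.60, SE 0.043, edgeR adjusted p = 8.66e-07). Its relative AMOTL1 (chr11:94706431-94876753, plus strand) had 133, 133 and 132 CPM in the wild-type libraries, against 112, 109 and 115 CPM in the knockout. AMOTL1 fell by 0.24 in log2 units (SE 0.035, edgeR adjusted p = 2.13e-04), again with no overlap. Both calls were kept in all 15 alternative settings, with log2 fold changes of 0.50 to 0.65 for AMOT and −0.32 to −0.22 for AMOTL1.

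AMOTL2, an angiomotin that is itself a YAP target, had 7.56, 7.71 and 9.35 CPM in the wild-type libraries, against 9.88, 8.93 and 9.14 CPM in the knockout. The groups overlapped and the difference did not pass (log2 fold change 0.18, 95% interval −0.07 to 0.42). The make-up of the family by length-corrected level differed between the groups. AMOT took 61.1%, 63.2% and 60.7% of the summed angiomotin TPM in the wild-type libraries, against 72.9%, 74.3% and 73.0% in the knockout. The share of AMOTL1 went from 33.6% ± 0.977 to 22.3% ± 0.636 (SD, n = 3), and that of AMOTL2 was 4.78% ± 0.793 and 4.28% ± 0.251. The summed level of the family was 71.9, 75.6 and 70.9 TPM in the wild type and 87.8, 85.3 and 87.7 TPM in the knockout, so that the sum was higher in every knockout library. These shares and sums are a description with no test of their own.

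NF2 (chr22:29603556-29698598, plus strand), which encodes merlin, a membrane-linked activator of LATS and a tumour suppressor, had 121, 115 and 114 CPM in the wild-type libraries, against 88.6, 96.4 and 87.3 CPM in the knockout. Every knockout library lay below every wild-type library, and NF2 fell 1.28-fold (log2 fold change −0.36, SE 0.044, edgeR adjusted p = 6.27e-05). The call ended with effective-length offsets (log2 fold change −0.26, adjusted p = 0.0713) and held in the other 14 settings.

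PTPN14, a phosphatase that binds YAP and keeps it from the nucleus, had 113, 115 and 106 CPM in the wild-type libraries, against 95.7, 82.2 and 80.6 CPM in the knockout. The groups did not overlap, and it fell 1.29-fold (log2 fold change −0.37, SE 0.057, edgeR adjusted p = 3.96e-04). PTPN14 lies on chromosome 1 (chr1:214348696-214552449, minus strand), where the 50 nearest tested genes had a median log2 fold change of 0.226. With an offset for those neighbours the value of PTPN14 was −0.59 (adjusted p = 1.29e-05), so it moved against its surroundings.

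The other upstream regulators did not pass. WWC1, the KIBRA scaffold that works with merlin, had 68.6, 65.7 and 72.7 CPM in the wild-type libraries, against 61.0, 64.1 and 62.9 CPM in the knockout. Its groups did not overlap, and it fell just short of the threshold (log2 fold change −0.14, edgeR adjusted p = 0.0528). WWC1 was called lower in 4 of 15 settings, among them without wild-type replicate 2 (adjusted p = 0.0394) and with RLE scaling (0.045). AJUBA and WTIP, LIM proteins that bind and restrain LATS, had log2 fold changes of 0.06 and −0.19, with 95% intervals of −0.13 to 0.26 and −0.68 to 0.30.

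**Figure D3:**
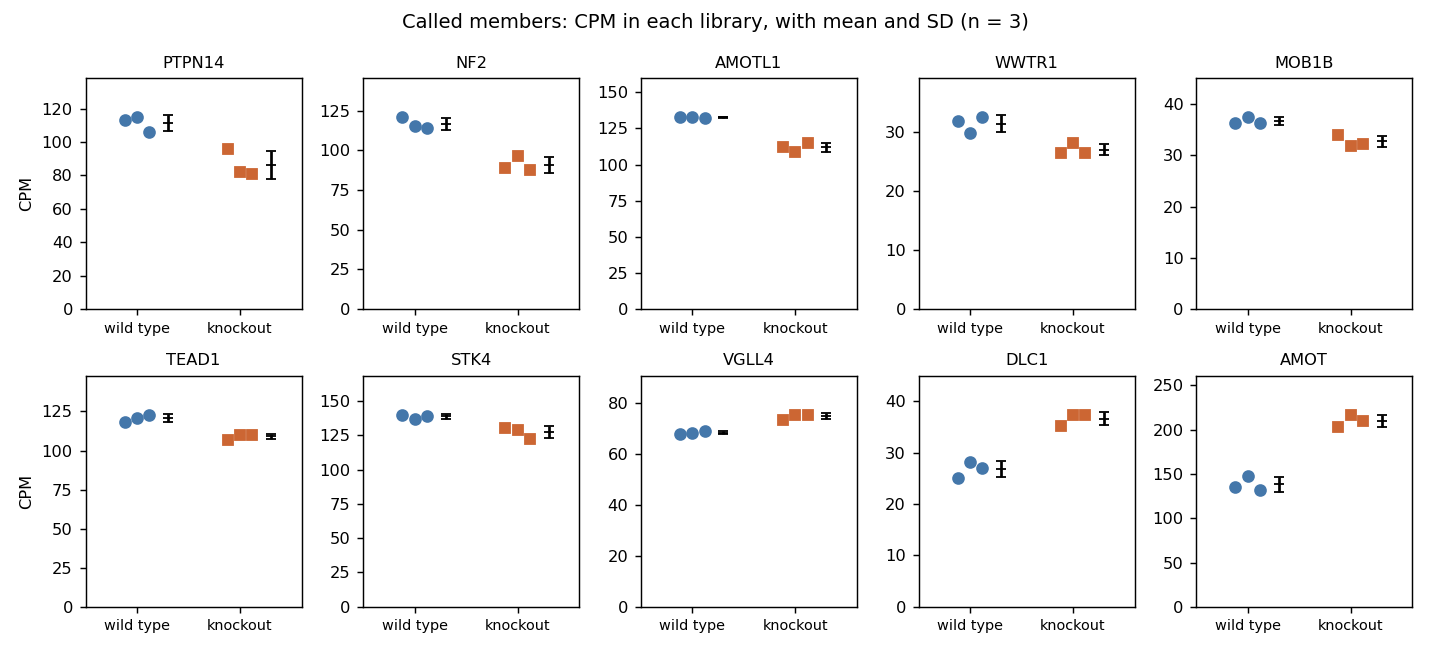
CPM in each library for the 10 called members, wild type as circles and knockout as squares, with the mean and SD (n = 3) beside each group. The groups do not overlap in any of the 10 panels, and the gap is widest for AMOT and narrow for STK4, MOB1B, WWTR1, TEAD1 and VGLL4.

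Of the effectors, WWTR1 was lower and YAP1 was not distinguishable between the groups. YAP1 had 45.3, 42.8 and 44.6 CPM in the wild-type libraries, against 46.1, 41.3 and 41.6 CPM in the knockout. The groups overlapped, with a log2 fold change of −0.04 and a 95% interval of −0.16 to 0.08. WWTR1 (chr3:149517235-149736714, minus strand), which encodes TAZ, had 31.9, 29.9 and 32.6 CPM in the wild-type libraries, against 26.5, 28.1 and 26.5 CPM in the knockout. It fell by 0.22 in log2 units (SE 0.061, edgeR adjusted p = 0.0195) with no overlap. The call ended in DESeq2 (adjusted p = 0.0522) and, with edgeR, when leaving out wild-type replicate 1 or 3 (0.0559 and 0.0696) and, in turn, when knockout replicate 1 was left out (0.0705). Per length the paralogues were near equal, YAP1 with 51.4% ± 1.15 of their summed TPM in the wild type and 55.6% ± 2.05 in the knockout (SD, n = 3).

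Among the TEADs, the DNA-binding partners, TEAD1 fell slightly and the other members did not pass. TEAD1 (chr11:12674591-12944483, plus strand) had 118, 121 and 123 CPM in the wild-type libraries, against 107, 110 and 110 CPM in the knockout. The groups did not overlap, and TEAD1 fell by 0.14 in log2 units (SE 0.035, edgeR adjusted p = 0.00898). Its estimated effective length was 7691 bases on average in the wild-type libraries, against 6978 in the knockout, with overlapping groups, and with offsets for that length the difference was −0.02 (adjusted p = 0.866). TEAD2 had 20.5, 21.3 and 22.6 CPM in the wild-type libraries, against 21.5, 18.5 and 24.1 CPM in the knockout. TEAD3 had 10.2, 6.92 and 9.25 CPM in the wild-type libraries, against 8.41, 8.30 and 8.29 CPM in the knockout. TEAD4 had 26.0, 22.7 and 24.9 CPM in the wild-type libraries, against 23.3, 20.9 and 23.9 CPM in the knockout. Each of these 3 overlapped between groups, with 95% intervals for the log2 fold change of −0.21 to 0.18, −0.36 to 0.21 and −0.28 to 0.05.

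By level per length the TEAD paralogues ranked TEAD4, TEAD1, TEAD2 and TEAD3 in both groups. TEAD4 had 30.0 ± 2.11 TPM in the wild type and 26.1 ± 2.61 TPM in the knockout, and TEAD1 had 25.6 ± 1.65 and 24.0 ± 2.38 TPM (SD, n = 3). In wild-type replicate 2 these top paralogues had 27.7 and 27.5 TPM, so their order rests on little. TEAD2 followed with 19.0 ± 1.55 and 18.3 ± 3.58 TPM, and lay below TEAD1 in every library. TEAD3 was the lowest in every library, with 6.76% and 6.65% of the summed TEAD TPM in wild type and knockout.

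VGLL4, which competes with YAP for TEADs and so restrains target genes, had 67.9, 68.1 and 69.0 CPM in the wild-type libraries, against 73.4, 75.4 and 75.3 CPM in the knockout. It rose 1.09-fold with no overlap (log2 fold change 0.13, SE 0.040, edgeR adjusted p = 0.0329). The call ended in DESeq2 (adjusted p = 0.117) and, with edgeR, when leaving out wild-type replicate 1, 2 or 3 (0.112, 0.096 and 0.0774) and, in turn, when knockout replicate 2 or 3 was left out (0.0854 and 0.0647). Exons of ATG7 and of an antisense gene on the other strand lie over 23.7% of the VGLL4 exon bases, and whether reads were assigned by strand is not stated in the labels, so reads from these genes cannot be told apart.

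Of the 13 genes listed as targets, which are the usual readout of YAP and TEAD activity, 11 were tested, 1 rose (DLC1) and 0 fell by edgeR. The called share was 9.09%, against 23.4% of all tested genes (11.4% lower), and in a list this short nothing is read from that gap. These counts leave out PTPN14, LATS2 and AMOTL2, known YAP targets that are counted here as regulators or kinases. PTPN14 was called lower (log2 fold change −0.37), while LATS2 (−0.13) and AMOTL2 (0.18) did not pass. DESeq2 and limma-voom also called 0 of the listed targets lower, where they called 1513 and 1774 of the 15958 tested genes lower. With 11 targets tested, nothing is read from these counts either. CCN1, a secreted matricellular protein and one of the most used YAP targets, had 12.3, 13.1 and 12.2 CPM in the wild-type libraries, against 14.1, 13.9 and 13.5 CPM in the knockout. All 3 knockout values lay higher, but the difference did not pass (log2 fold change 0.15, 95% interval −0.03 to 0.32, edgeR adjusted p = 0.227). CCN1 lies on chromosome 1 and its 50 nearest tested genes had a median of 0.142.

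CCN2, a relative of CCN1 whose promoter held the 3 TEAD letter matches, was at a low level. It had 1.52, 2.46 and 2.17 CPM in the wild-type libraries, against 1.31, 2.54 and 1.14 CPM in the knockout. The groups overlapped and the interval was wide (log2 fold change −0.28, 95% interval −0.96 to 0.40). It also moved with single libraries, to −0.75 without knockout replicate 2, −0.08 without knockout replicate 3, −0.13 without wild-type replicate 2, −0.14 without knockout replicate 1 and −0.46 without wild-type replicate 1, and none of these passed. ANKRD1, a muscle ankyrin repeat protein and a common YAP reporter, had 8, 17 and 8 counts in the wild type and 6, 4 and 9 counts in the knockout. AXL, a receptor tyrosine kinase, had 3, 5 and 3 counts and 3, 6 and 4 counts. Both lay under the tested level, and their ranges overlapped between groups.

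The remaining targets also did not pass. NT5E, the cell surface enzyme CD73 that makes adenosine, had 0.734, 0.629 and 1.08 CPM in the wild-type libraries, against 1.19, 1.49 and 1.26 CPM in the knockout. Its groups did not overlap, yet with 12 to 31 counts in a library the difference was imprecise (log2 fold change 0.68, SE 0.31, edgeR adjusted p = 0.139). MYOF, the membrane repair protein myoferlin, was lower in each knockout library without passing (log2 fold change −0.44, SE 0.30, edgeR adjusted p = 0.319). ASAP1, an ARF GTPase-activating protein, and CRIM1, a transmembrane binder of BMPs, were well expressed, with 95% intervals of −0.12 to 0.05 and −0.23 to 0.03. ARHGEF17, a guanine nucleotide exchange factor, had a log2 fold change of 0.13 (interval −0.06 to 0.32). F3 (tissue factor), TGFB2 (a secreted growth factor) and NUAK2 (an AMPK-related kinase) lie on chromosome 1, with log2 fold changes of 0.19, 0.23 and −0.21 beside neighbour medians of 0.174, 0.192 and 0.18. None of the 3 passed, and single libraries moved these values. NUAK2 changed sign, to 0.29, without wild-type replicate 2, which held 35 counts where the other libraries held 15 to 21. TGFB2 ranged from 0.02 without knockout replicate 1 to 0.43 without wild-type replicate 3. F3 also changed sign, to −0.12 on log2(TPM + 1) and −0.08 once effective length was an offset.

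DLC1, a GTPase-activating protein, was the one gene called among those listed as targets, and its result depended on gene length. It had 25.1, 28.1 and 27.1 CPM in the wild-type libraries, against 35.2, 37.3 and 37.4 CPM in the knockout. The groups were well separated, and DLC1 rose 1.37-fold by counts (log2 fold change 0.45, SE 0.061, edgeR adjusted p = 1.29e-04). The authors' deposited effective length of DLC1, which depends on the mixture of transcripts assigned to the gene, was 4292, 3965 and 2724 bases in the wild type and 5044, 5435 and 4896 bases in the knockout. It too was higher in all knockout libraries, 1.40-fold on average. The deposited TPM, corrected for that length, was 9.59, 11.5 and 16.1 in the wild-type libraries, against 10.7, 10.3 and 11.9 in the knockout, with overlapping groups. With effective-length offsets the log2 fold change was −0.10 (adjusted p = 0.739) and on log2(TPM + 1) −0.14 (limma adjusted p = 0.645). The rise was thus called on reads of the gene and was not called once effective length was taken into account.

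**Figure D4:**
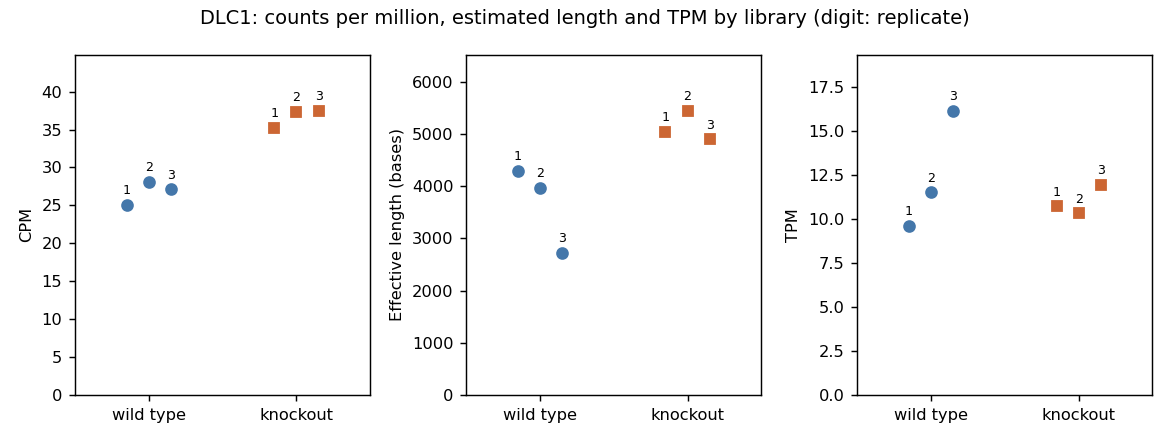
DLC1 in each library as CPM, estimated effective length in bases and TPM, with the replicate number at each point. The knockout lies above the wild type in CPM and in length, while in TPM the groups overlap and wild-type replicate 3 is the highest (16.1).

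Members on chromosome 1 lay in a stretch of raised genes. Over 1574 tested genes of that chromosome the median log2 fold change was 0.149, against 0.006 over all tested genes. All 5 members there (CCN1, F3, NUAK2, PTPN14 and TGFB2) had neighbour medians of 0.142 to 0.226, whereas for members on other chromosomes these medians lay between −0.079 and 0.079. Of the 5, PTPN14 was called, and it was lower. With an offset for the 50 neighbours the log2 fold change of CCN1 was 0 (edgeR adjusted p = 0.981), that of F3 0.02 (0.962) and that of TGFB2 0.04 (0.939), while NUAK2 went to −0.38 (0.511).

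**Figure D5:**
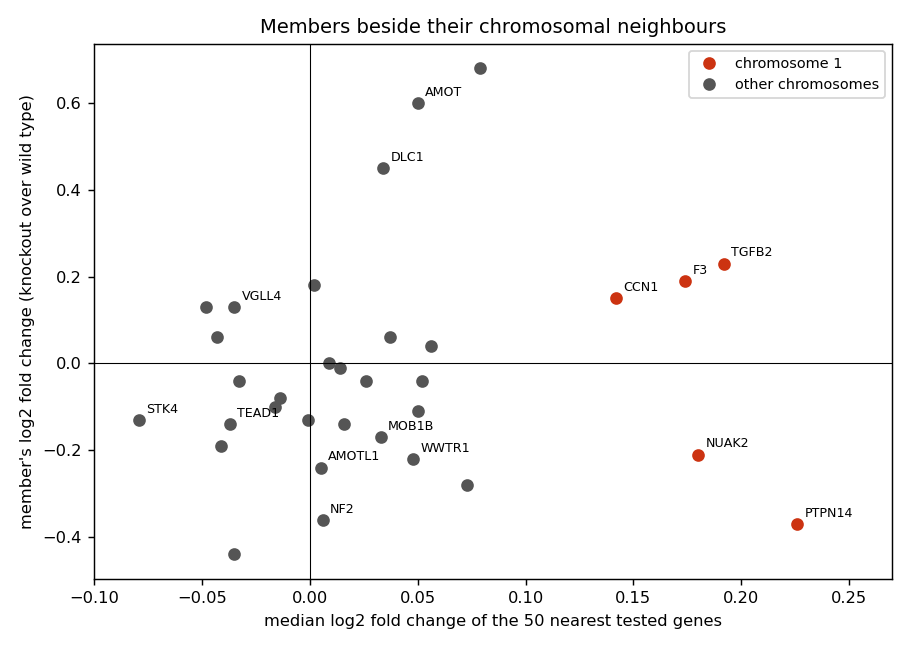
Log2 fold change of each tested member against the median log2 fold change of the 50 nearest tested genes on its chromosome, with members of chromosome 1 in red. CCN1, F3 and TGFB2 sit close to their neighbours' values, while PTPN14 (−0.37 beside 0.226) lies well below them.

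A second set held 71 Hippo regulators outside the members. Of 66 tested, 6 rose and 15 fell (31.8% called, background 23.4%), with a median log2 fold change of −0.03. The largest falls by p were in TAOK1, a kinase that activates MST kinases, from 190 ± 3.72 to 145 ± 0.485 CPM (SD, n = 3, log2 fold change −0.39, edgeR adjusted p = 2.84e-06), beside neighbours on its chromosome with a median of −0.177. FAT1, a giant cadherin, fell from 85.3 ± 3.80 to 63.1 ± 3.65 CPM, and FRMD6, a FERM protein that acts with merlin, from 24.9 ± 0.95 to 18.2 ± 0.442 CPM. The spectrin SPTBN1 and the polarity scaffold DLG1 fell by 0.23 and 0.24 on the log2 scale. With offsets for effective length FAT1 and DLG1 were no longer called (adjusted p = 0.153 and 0.119).

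Among the rises were YWHAE and YWHAQ, 14-3-3 proteins that hold phosphorylated YAP in the cytoplasm, with log2 fold changes of 0.30 and 0.14. RASSF5, which binds MST kinases, rose from 13.8 ± 0.668 to 21.1 ± 1.65 CPM (SD, n = 3), with a difference of 0.61 in log2 units beside a neighbour median of 0.155. MARK1, a polarity kinase, and STK24, an MST-related kinase, had log2 fold changes of 0.25 and 0.13. The call of MARK1 ended with an offset for its neighbours (adjusted p = 0.636) and without wild-type replicate 1 (0.0541). The STK24 call was lost without wild-type replicate 1 or 2 (0.125 and 0.0802) and, in turn, when knockout replicate 1 or 3 was left out (0.0609 and 0.0547), and that of YWHAQ with effective-length offsets (0.0899).

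Of 35 further genes reported as YAP-TEAD targets, 26 were tested, 2 rose and 6 fell (30.8% called, against 23.4% of all tested genes), with a median log2 fold change of 0.045. The growth arrest gene GADD45A rose by 1.02 beside chromosome 1 neighbours with a median of 0.162. The survival factor BCL2L1 rose by 0.23, a call that ended in DESeq2 (adjusted p = 0.085) and without wild-type replicate 1 or 2 (0.139 and 0.136) and, in turn, when knockout replicate 2 or 3 was left out (0.0724 and 0.195). CCND1 (cyclin D1), LMNB2 (lamin B2), FSTL1 (a secreted glycoprotein), MARCKS (an actin-binding kinase substrate) and DOCK5 (a Rac exchange factor) fell, with log2 fold changes of −0.67, −0.18, −0.22, −0.21 and −0.25. With offsets for effective length LMNB2, FSTL1 and DOCK5 were no longer called (adjusted p = 0.167, 0.0653 and 0.0975). The secreted proteins EDN1 and IGFBP3, singled out after their values were seen, were hardly present, with wild-type means of 0.14 and 0.162 CPM and knockout means of 0.057 and 0.121 CPM.

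The paralogues compared here share little exact sequence. Of the 50-base stretches of each member's longest GENCODE 29 transcript, TEAD3 and TEAD4 shared 7 with each other. Only the genes sharing most stretches with each member were listed, and no other pair of members appeared among them. The largest share found in another gene was 26.4% for TGFB2, all in the overlapping transcript TGFB2-OT1, followed by 8.53% for SAV1. How reads from such stretches were assigned is not stated in the labels.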

How the data were processed

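Libraries of HEK293, 3 per genotype label, were compared. Per the submitters' processing notes, the tools were FastQC, fastp, DRAGEN and Picard and the build was hg38, without versions or roles. The authors deposited, per the file headers, estimated counts, TPM (scaled to 1000000), length and effective length per gene. Estimated counts were rounded, 45 Y copies of pseudoautosomal genes were dropped, and symbols came from a name table. Replicates differed by more than sampling noise (chi-square per degree of freedom 2.45 to 7.50).

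Differences were tested with edgeR 4.0.16 in R 4.3.3 (filterByExpr with minimum count 10 and total 15, TMM, quasi-likelihood F test of group) and Benjamini-Hochberg adjustment over 15958 genes, and checked on simulated data. Fold changes and CPM use TMM-scaled library sizes, and levels between genes use the deposited TPM. Intervals are 95% intervals of edgeR's estimate. Positions come from GENCODE 29, sequences from RefSeq windows on GRCh38.p14. Members without a window were STK3, TEAD1, TEAD4, CCN1, ARHGEF17, CRIM1, DLC1 and ASAP1.

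The members and lists were chosen with earlier results of these data known. Full values are given for called members and for YAP1, WWTR1, the TEADs, LATS1, LATS2, NF2, CCN1, CCN2 and ANKRD1, and up to 5 genes per direction from each further list. WWC1, AMOTL2, NT5E and other members with values were singled out after these were seen. The alternatives tried were DESeq2 1.42.0, RLE scaling, limma-voom (limma 3.58.1), no filter, a filter of 1 CPM in 3 libraries, effective-length offsets, limma on log2(TPM + 1), a replicate block, an offset from 50 neighbouring genes and leaving out each library.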

Additional observations from a re-analysis of the deposited data

How the results depend on the processing

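Between settings the number of members called varied more than the direction of most. Higher and lower members numbered 1 and 4 on log2(TPM + 1) and 1 and 3 when effective length was an offset, against 3 and 7, and the counts over all genes fell as well, to 488 and 1135 and to 891 and 843. Leaving out 1 library gave 2 to 3 higher and 4 to 7 lower members, with 4 lower without wild-type replicate 1, and 1344 to 1794 higher and 1327 to 1822 lower genes. The further Hippo regulators numbered 2 higher and 8 lower on log2(TPM + 1), 7 lower with effective-length offsets, and 4 to 6 and 9 to 13 with 1 library left out, the fewest lower (9) without wild-type replicate 1. The further targets numbered 1 higher with RLE scaling, DESeq2, limma-voom, log2(TPM + 1) and effective-length offsets, 1 to 2 with 1 library left out, and 3 lower with effective-length offsets. DLC1 changed sign on log2(TPM + 1) (−0.14) and once effective length entered as an offset (−0.10), and the scale of log2(TPM + 1) moved the median of all genes to −0.059.

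With the replicate number as a block, 2 members were higher and 6 lower, and the calls of MOB1B (adjusted p = 0.061), VGLL4 (0.0512) and STAT5B (0.0554) ended. The deviations of same-numbered libraries correlated at 0.00375, 0.104 and 0.0415, so the numbers are not shown to pair the samples. With more fixed letters, which can only lower a share, promoter matches were found for 7.41% of members and 1.42% of all genes with ACATTCCA, and for 5.54% of all genes with TTCTNNGAA, where the members stayed at 3.7%. The targets under 1 TPM rest on few counts, and the cause of the other differences between settings was not tested.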
